A study of Caenorhabditis elegans with 2 samples.

Results

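Histones are the proteins around which DNA is wrapped in nucleosomes, and the 72 genes described here are all protein-coding genes of the WBcel235 genome annotation of the nematode Caenorhabditis elegans whose name is his- followed by a number, out of 19973 nuclear protein-coding genes. They encode the core histones H2A (17 genes), H2B (16), H3 (15) and H4 (16), the H3 variant H3.3 (5), a linker histone H1 (his-24) and 2 short proteins with part of a histone fold (his-39 and his-73). EFL-1 binding was measured by chromatin immunoprecipitation followed by sequencing (ChIP-seq) in whole hermaphrodites of strain YL478 at the young adult stage. The strain is transgenic and carries EFL-1 joined at its C-terminal end to GFP and FLAG, and the promoter that drives the transgene is not given in the labels. The labels give 2 biological replicates of this 1 group, 1 technical replicate each, and chromatin was sonicated. The description names an antibody against GFP while the antibody label names efl-1; the description was followed, and whether untagged EFL-1 was also precipitated cannot be told from the labels. Nothing was compared with another strain, stage or factor, the control library that the labels name was not analysed here, and no test was therefore possible. Depth is unknown, because the deposited peak lists hold no read counts. In whole animals, binding in fewer cells and weaker binding in every cell cannot be told apart.

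EFL-1 is an E2F-family transcription factor that binds DNA with its partner DPL-1 and works with the retinoblastoma relative LIN-35, in part within the DREAM complex, which holds down cell cycle genes in cells that have stopped dividing. Most core histone genes are switched on when DNA is replicated, since each new genome copy needs new nucleosomes, and in young adult worms the dividing cells are those of the germ line. The core histone genes lie in clusters, mostly as divergent pairs, H3 beside H4 and H2A beside H2B, that share the short stretch of DNA between their starts. H3.3 is the form of H3 that is put into chromatin outside replication, and linker histones bind the DNA between nucleosomes.

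Of the 72 genes, 67 lay in 14 clusters of 2 or more genes, joined where neighbours were within 10 kb, and 5 lay alone (his-24, his-71, his-72, his-73 and his-74). There were 31 divergent pairs with 62 members, 14 of H3 and H4, 16 of H2A and H2B, and 1 of H4 and H2A (his-67 and his-68). The DNA between the 2 coding starts of a pair was 227 to 368 bp long, with a median of 258 bp. The 31 pairs held 21 distinct sequences, and 16 pairs had an exact copy of theirs at another pair.

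The sequences below, on the plus strand of build ce11, show 4 H3 and H4 pairs that can be told apart by sequence, 1 H2A and H2B pair that cannot, and peaks of other kinds. Capitals mark 8-base words, on either strand, that at least 12 of the 21 distinct pair sequences share (AAGACTCA and AGACTCAC, AAGTGAGA, ATGTGTCC, and GGGACACA and GGGGACAC), and any of the 4 E2F core sequences searched on either strand (TTCCCGC and TTCGCGC as well as TTGCCGC and TTGGCGC). Some of the words overlap each other, and they were picked after the sequences had been compared. The first 2 sequences, chrIV:7487993-7488248 and chrIV:11406862-11407115, lie between H3 and H4 genes and hold EFL-1 peaks. The next 2, chrV:16042284-16042519 and chrX:7309876-7310109, lie between H3 and H4 genes and hold none. The fifth, chrV:8850172-8850463, has 4 exact copies in the genome, 1 per pair, and no region in any list. The sixth is the peak between his-61 and his-62, chrIV:7486244-7486533, and the last is the DNA around the peak summit upstream of his-37, chrV:9546886-9547086, which holds the E2F core that lay nearest to a histone gene peak.
his-60 to his-59: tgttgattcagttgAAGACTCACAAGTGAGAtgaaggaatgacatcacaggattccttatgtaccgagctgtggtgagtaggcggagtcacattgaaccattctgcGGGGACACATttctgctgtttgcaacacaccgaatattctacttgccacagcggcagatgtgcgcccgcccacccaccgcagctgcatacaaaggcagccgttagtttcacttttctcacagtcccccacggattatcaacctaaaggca
his-63 to his-64: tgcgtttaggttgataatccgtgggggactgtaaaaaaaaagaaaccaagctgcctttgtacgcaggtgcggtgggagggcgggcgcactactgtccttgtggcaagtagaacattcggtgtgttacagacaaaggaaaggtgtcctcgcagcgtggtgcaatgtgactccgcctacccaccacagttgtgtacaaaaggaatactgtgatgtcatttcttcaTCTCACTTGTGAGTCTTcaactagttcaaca
his-2 to his-1: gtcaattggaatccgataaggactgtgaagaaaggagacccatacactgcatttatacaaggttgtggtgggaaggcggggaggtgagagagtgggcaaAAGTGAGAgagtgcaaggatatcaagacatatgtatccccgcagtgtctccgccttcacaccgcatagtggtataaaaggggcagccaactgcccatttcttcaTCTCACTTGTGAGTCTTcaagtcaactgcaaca
his-38 to his-40: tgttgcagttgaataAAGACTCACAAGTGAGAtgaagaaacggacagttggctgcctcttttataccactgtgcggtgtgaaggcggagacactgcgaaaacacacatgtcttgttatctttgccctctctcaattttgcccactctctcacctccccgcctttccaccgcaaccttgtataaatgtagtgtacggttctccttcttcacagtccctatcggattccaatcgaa
his-51 to his-52: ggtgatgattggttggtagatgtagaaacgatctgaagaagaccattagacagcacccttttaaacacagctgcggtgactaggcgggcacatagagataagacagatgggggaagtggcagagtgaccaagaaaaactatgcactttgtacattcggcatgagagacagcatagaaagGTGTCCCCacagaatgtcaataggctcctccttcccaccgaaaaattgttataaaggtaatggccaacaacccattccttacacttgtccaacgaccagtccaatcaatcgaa
his-61 and his-62 peak: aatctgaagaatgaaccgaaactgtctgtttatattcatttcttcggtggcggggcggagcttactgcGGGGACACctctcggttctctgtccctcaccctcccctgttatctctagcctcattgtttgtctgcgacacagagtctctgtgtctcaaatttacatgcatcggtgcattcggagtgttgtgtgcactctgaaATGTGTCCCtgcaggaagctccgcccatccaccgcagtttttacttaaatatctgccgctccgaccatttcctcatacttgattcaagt
his-37 summit: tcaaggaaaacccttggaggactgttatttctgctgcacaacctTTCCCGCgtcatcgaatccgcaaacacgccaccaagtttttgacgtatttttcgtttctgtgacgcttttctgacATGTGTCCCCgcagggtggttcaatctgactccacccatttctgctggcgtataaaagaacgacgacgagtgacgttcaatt

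EFL-1 peaks stood at the promoters of 10 histone genes, and their median signal was below that of all genes with a peak. A promoter peak is a peak of the authors' optimal list, the list thresholded for reproducibility between replicates, with its summit within 500 bp of a start site. Of the 72 histone genes, 10 had one (13.9%, exact 95% binomial interval 6.87% to 24.1%), beside 10.9% of all genes (2187 of 19973), so the share was near that of the genome. With a window of 200 bp it was 9 genes (12.5%), against 5.92% of all genes. The interval covers counting error only, and divergent genes that share a peak are not independent. The 10 genes shared 6 peaks in 5 of the 19 groups. By type, a promoter peak stood at 4 of 16 H4 genes, 2 of 15 H3 genes, 2 of 17 H2A genes, 1 of 16 H2B genes and 1 of 5 H3.3 genes, and at neither the H1 gene nor the 2 fragments. The types also differed in how many of their genes lay in unique sequence, as given below. The signal value is the authors' own, on a scale that the sources used here do not state. The median signal was 61.6 over the 10 histone genes, against 93.4 over all genes with a promoter peak. The optimal list holds 2802 nuclear peaks, with signals that start at 40.1 and a median of 78.4.

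The strongest histone gene peak lay between his-67, an H4 gene, and his-68, an H2A gene, the only divergent pair of that kind. Its signal was 144, rank 687 of 2802, with 52.9 in replicate 1 and 93.9 in replicate 2. The peak was 256 bp wide on chromosome I, 9988853 to 9989108, with its summit 198 bp upstream of his-67 and 171 bp upstream of his-68. It ranked 1171 in the list of replicate 1 and 447 in that of replicate 2, so the replicates placed it differently.

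The H4 gene his-37, which has no divergent partner, had the next peak, with a signal of 80.0 (rank 1370), 34.4 in replicate 1 and 44.8 in replicate 2. It was 76 bp wide on chromosome V, 9546951 to 9547026, with the summit 119 bp upstream of the start site. This was the one histone gene peak with an E2F core within 100 bp of its summit: TTCCCGC began 56 bp before the summit, 14 bases outside the listed peak. A second region 359 bp downstream of the his-37 start, within the gene, had 36.4 in the joint list, under the lowest optimal signal.

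The cluster his-61, his-62, his-60 and his-59 on chromosome IV was the one cluster in which all of at least 3 members had a promoter peak. The peak between his-60 (H4) and his-59 (H3), 7488062 to 7488192, had a signal of 65.2 (rank 1686), 31.0 in replicate 1 and 34.7 in replicate 2. The peak between his-61 (H2A) and his-62 (H2B), 7486244 to 7486533, had 58.0 (rank 1934), 33.6 in replicate 1 and 26.5 in replicate 2. Both summits lay within 122 to 172 bp of the 2 starts they stand between. The replicates gave like values at both peaks, and their ranks were 2168 and 1951 in replicate 1 and 1491 and 2015 in replicate 2. The replicate lists also had regions away from these promoters. A region within his-60 had 20.3 in replicate 1 and 28.5 in replicate 2. At the 3' end of his-59, a region had 16.1 in replicate 2. It overlapped one of 39.8 in replicate 1, above the replicate 1 values of both peaks. Neither was an optimal peak.

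The weakest peak lay between his-63 (H3) and his-64 (H4), 11406802 to 11407091 on chromosome IV. Its signal of 40.8 ranked 2757 of 2802, just above the lowest optimal signal of 40.1, with 20.2 in replicate 1 (rank 3629) and 23.4 in replicate 2 (rank 2351). It is the histone gene peak nearest to the threshold, and it drops out when replicate 1 alone ranks the peaks. Of its 36-base words, 79.0% occur once in the genome, against 100% at the other 5 peaks.

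The H3.3 gene his-72 was the one gene outside the clusters with a promoter peak, and the one such among the 5 H3.3 genes. The signal was 53.6 (rank 2094), 34.2 in replicate 1 and 23.0 in replicate 2. The peak, 12368413 to 12368702 on chromosome III, lies inside the longer of the annotated transcripts, and its summit is 394 bp upstream of the inner start site. The H3.3 gene his-74 had an optimal peak with a signal of 64.8 (rank 1700) at 505 bp upstream, 5 bp too far to be counted. That peak had 45.3 in replicate 1 and 8.09 in replicate 2, where a separate region 287 bp upstream had 26.8, so the replicates differed in where the signal lay. The H3.3 genes his-69 and his-70 had regions at their start sites in replicate 2 alone, with signals of 4.52 and 6.11, and his-71 had none in any list. The histone-fold fragments his-39 and his-73 had none either, in sequence with 79.8% and 80.0% unique 36-base words.

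**Figure D1:**
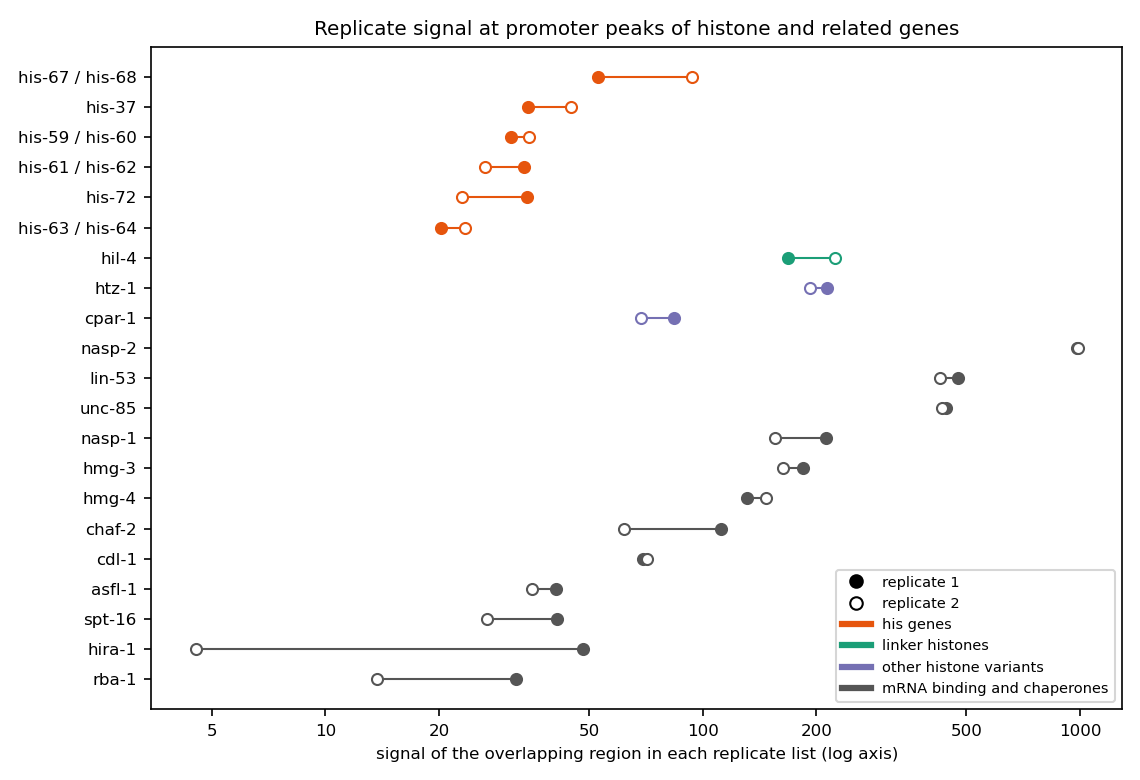
Signal in the replicate lists (log axis) at the promoter peaks of histone genes and of listed related genes. Each row is 1 peak, filled circles are replicate 1, open circles replicate 2, and the line joins them; the 6 histone gene peaks lie between 20.2 and 93.9, while nasp-2 lies at 984 in replicate 1 and 987 in replicate 2.

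The joint list of 30000 regions, which includes background and reaches down to a signal of 7.02, added 7 genes. It had a region within 500 bp of a start site at 17 of the 72 histone genes (23.6%), against 35.5% of all genes. The replicate lists had one at 14 histone genes (19.4%) in replicate 1 and 20 (27.8%) in replicate 2, against 36.4% and 36.9% of all genes. None of the 7 came near the optimal threshold. The region at his-35 (H2A) and his-41 (H2B) had 17.0, with 11.0 in replicate 1 and 4.84 in replicate 2. The region between his-3 (H2A) and his-4 (H2B) had 13.5 in the joint list and 15.0 in replicate 2, and replicate 1 had no region there. At his-24, the linker histone gene, a region 54 bp past the start had 10.8, with 10.1 in replicate 2 and none in replicate 1. The regions counted for his-16 (18.7) and his-66 (9.07) lay 494 bp and 481 bp downstream of the start, beyond the ends of these short genes. At 52 of the 72 genes no list, joint or of either replicate, had a region.

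Most histone genes lie in sequence that occurs more than once in the genome, and where under 25% of it was unique no gene, histone or other, had a promoter peak. The measure was the share of 36-base words within 500 bp of a start site that occur once in the genome, on either strand. Its median was 9.44% over the 72 histone genes, against 100% over the other genes. At 25 histone genes no such word was unique, and at 6 all were. Fewer than 25% of the words were unique at 40 histone genes (55.6%) and at 272 other genes (1.37%). None of those 40 histone genes had a promoter peak, and none of the 272 other genes had one either. An upper bound of 3 over the number of genes gives 7.50% and 1.10%. It treats genes as independent, but the 40 lie in 7 groups and many share sequence, so for them it is too tight. The joint list had a region at 2 of the 40 (5.00%) and at 2 of the 272 (0.735%). The sources used here do not give the read length or how reads that match several places were treated. At these 40 genes, a lack of EFL-1 and a lack of listed peaks in repeated sequence cannot be told apart.

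At the 21 histone genes with at least 75% unique words, 8 had a promoter peak (38.1%), against 2152 of the 18888 other genes with such sequence (11.4%). By type, the 21 were 6 H4, 2 H3, 3 H2A, 2 H2B and 5 H3.3 genes, the H1 gene and the 2 fragments. The 8 with a peak were 3 H4 genes, 1 H3 gene, 2 H2A genes, 1 H2B gene and 1 H3.3 gene. These 8 genes shared 5 peaks in 4 of 13 groups, and when a peak counted only for the closest start the counts were 5 of 21 (23.8%), against 9.13% of the other genes. In the joint list the shares were 11 of 21 (52.4%), against 36.9%. Between those bounds, 1 of 4 histone genes at 25% to 50% unique words had a promoter peak (his-63), against 6 of 209 other genes (2.87%), and 1 of 7 at 50% to 75% (his-64), against 19 of 532 (3.57%). The bounds of 25% and 75% were chosen after the values had been seen, and no test of these shares was made. Among other genes, the share with a peak was higher in each class of more unique sequence, from 0% to 11.4%; among histone genes it was 0%, 25%, 14.3% and 38.1%, on 40, 4, 7 and 21 genes.

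**Figure D2:**
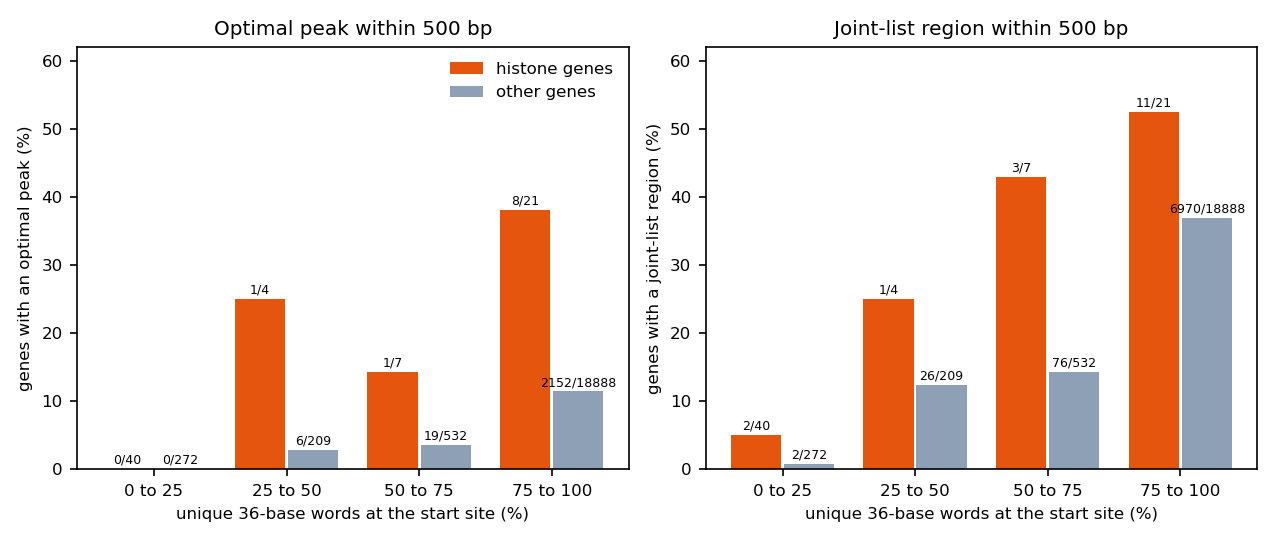
Percent of genes with an optimal peak (left) and with a joint-list region (right) within 500 bp of a start site, by the percent of unique 36-base words there. Histone genes are orange and other genes grey-blue, with counts over each bar; in the lowest class no gene of either kind has an optimal peak, and in the highest 8 of 21 histone genes do, against 2152 of 18888 other genes.

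**Figure D3:**
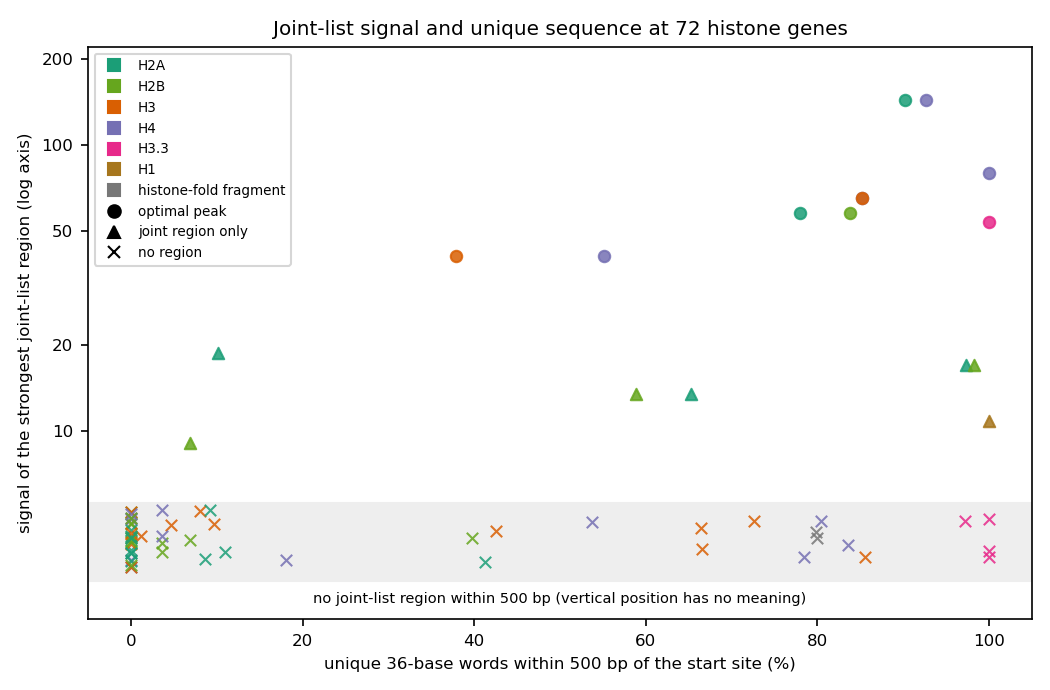
Signal of the strongest joint-list region within 500 bp of the start site (log axis) against the percent of unique 36-base words there, 1 point per histone gene, coloured by histone type. Circles are genes with an optimal peak, triangles genes with a joint-list region only, and crosses in the grey band genes with no region; the 8 circles beyond 75% have signals of 53.6 to 144.

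The histone genes were spread over all 6 chromosomes, with 2 on I, 14 on II, 3 on III, 22 on IV, 27 on V and 4 on X, and most clusters had no promoter peak (10 of 14). The 13 genes of the chromosome II cluster (his-9 among them), 10.9 kb long with 7.34% unique words, had no promoter peak, and neither had the 8 genes from his-28 to his-18 (his-17 among them; 1.07%) or the 6 genes from his-50 to his-53 (his-49 among them; 0%) on chromosome V. The nearest optimal summit lay 276873 bp from the group of 8 and 240916 bp from the group of 6. On chromosome IV, the groups of his-45 (3.57% unique) and his-55 (24.6%) had no region at a start site in the joint list. For the clusters with more unique words over their whole span, the picture was mixed. The 6 genes with his-29 (49.8% unique), the 5 with his-5 (61.4%) and the pair his-38 and his-40 on X (71.0%) also had no region in the joint list within their span. At the start sites themselves, no word was unique at his-29, his-30, his-33 and his-34, against 83.6% at his-31 and 85.5% at his-32. At his-8, his-7 and his-6 the share was 39.8% to 42.5%, and at his-5 53.7%. The group of his-1 to his-4 (70.1%) had only the weak region between his-3 and his-4, and the pair his-69 and his-70 (98.4%) had none in the joint list.

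**Figure D4:**
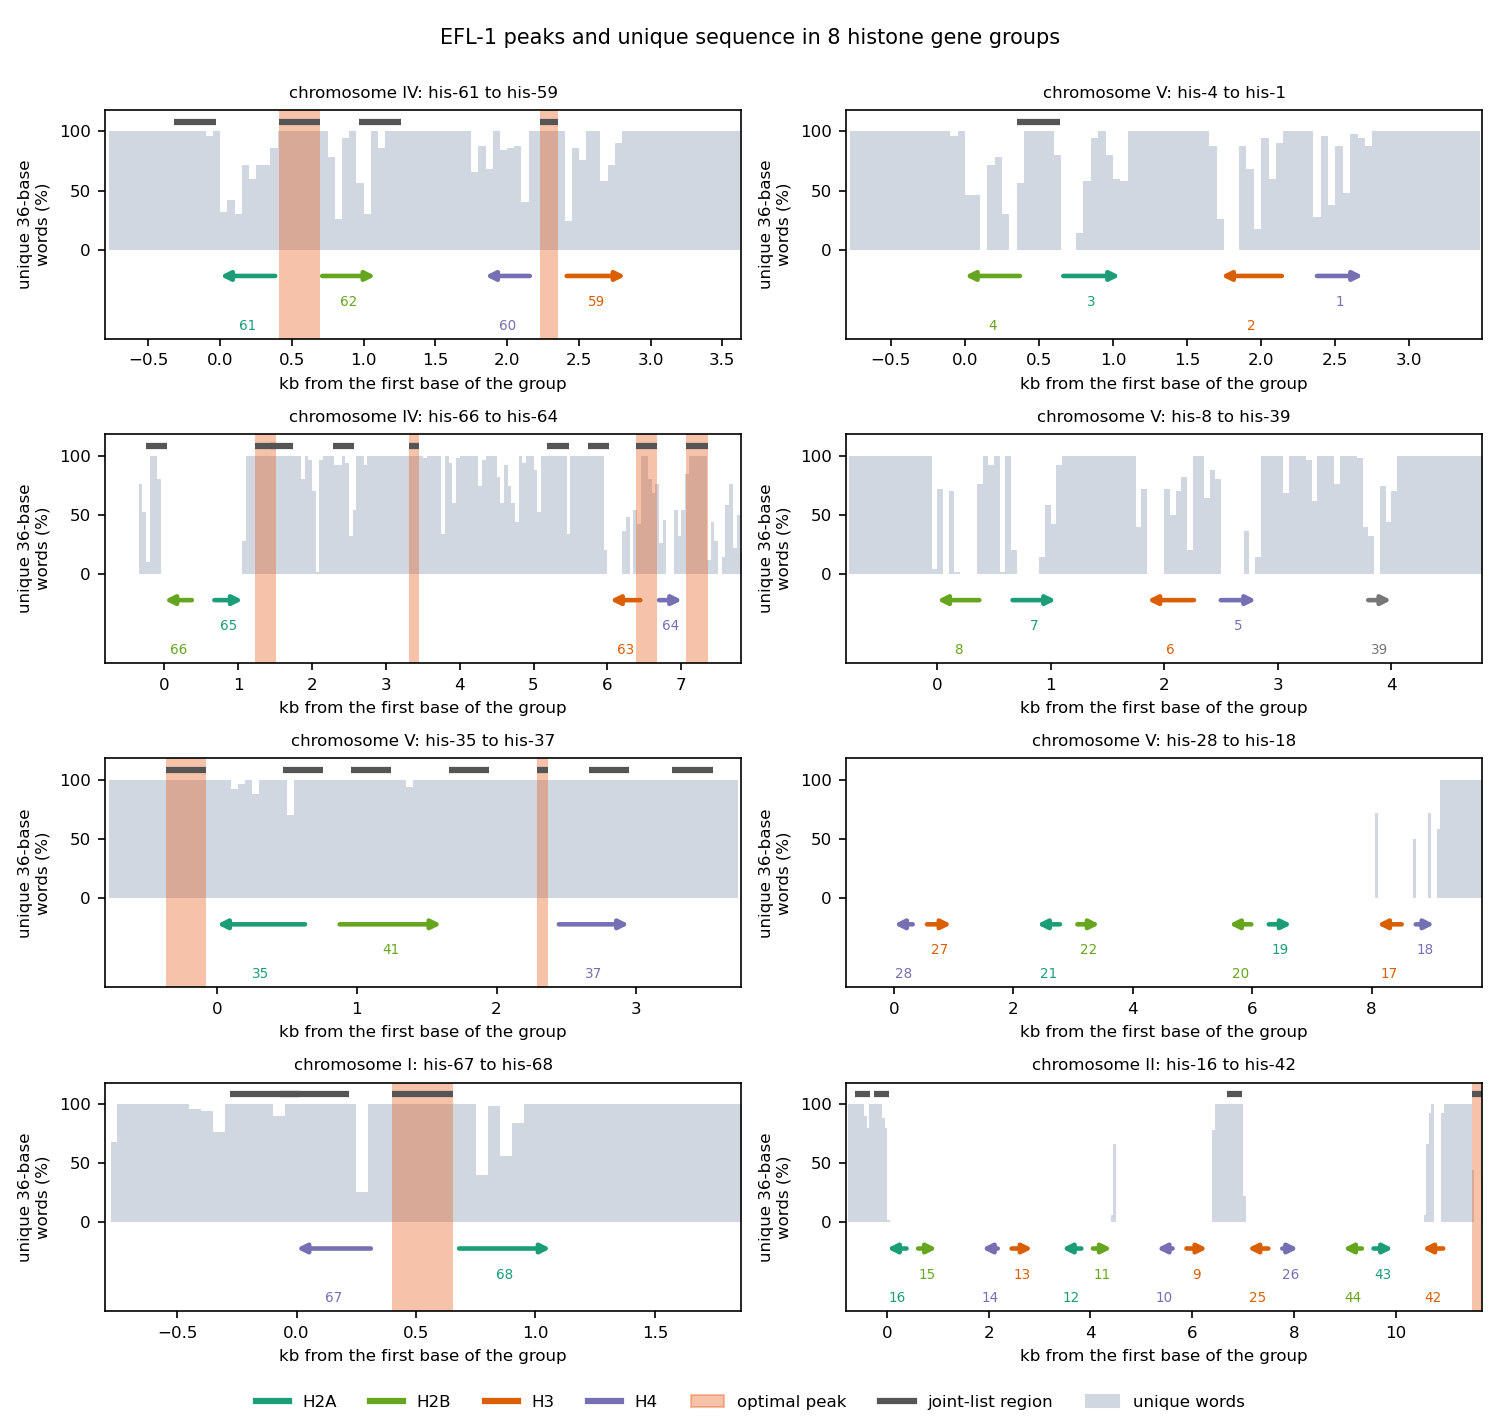
Maps of 8 histone gene groups, with kb from the first base of the group on the x axis and the percent of unique 36-base words in steps of 50 bases as grey-blue fill on the y axis. Arrows are histone genes in their direction of transcription, numbered by his- number and coloured by type (his-39, grey, is a histone-fold fragment; other genes are not drawn), orange bands are optimal peaks and dark bars joint-list regions; the 4 groups on the left hold promoter peaks, and the 4 on the right hold none.

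Among divergent pairs, 11 of 31 had at least 50% unique words between their starts, and 4 of these 11 had a promoter peak there. The other 7, from 80.5% to 100% unique, had none: his-31 and his-32, his-8 and his-7, his-6 and his-5, his-35 and his-41, his-4 and his-3, his-2 and his-1, and his-38 and his-40. Of 17 pairs with no unique word, none had a peak. Divergent pairs of other genes were not counted, so these counts have no background beside them. Some H3 and H4 pairs resembled each other closely, and 2 sets of alike pairs are described here. The DNA between his-60 and his-59 was 85.5% identical to that between his-63 and his-64, and both held a peak. The same stretch at his-46 and his-45 was 93.4% identical to that of his-63 and his-64, and at his-55 and his-56 93.0%, but both were only 14.0% unique and had no region. In the other set, his-2 and his-1 were 89.4% identical to his-38 and his-40 and 89.8% identical to his-6 and his-5. These 3 pairs were 94.9%, 100% and 86.0% unique, and no list region lay between their starts. Pairs in repeated sequence also resembled this set and had no region. The his-17 and his-18 sequence was 94.9% identical to that of his-6 and his-5 and 10.6% unique. The his-50 and his-49 sequence, with an exact copy at his-28 and his-27, was 94.5% identical to it and had no unique word. Between the sets identity was lower, 61.4% for his-2 and his-1 against his-63 and his-64. Other H3 and H4 pairs belonged to neither set. Among them, his-31 and his-32, 100% unique and without a peak, were at most 59.8% identical to any other pair. The his-14 and his-13 sequence, with no unique word, had exact copies at his-10 and his-9 and at his-25 and his-26. It was at most 68.4% identical to any different pair sequence. Whether likeness of sequence bears on binding was not tested.

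The words that histone promoters share were present with and without a peak. GGGACACA occurred in 58.3% of the 300-bp stretches before histone gene starts and in 0.432% of those before other genes. AAGACTCA occurred in 38.9% and in 0.502%. The words were picked because at least 12 of the 21 distinct pair sequences share them, so their high shares at histone genes follow from that choice. The stretches are also not independent, since divergent partners share DNA and 16 of 31 pairs have an exact copy. GGGACACA or its reverse complement TGTGTCCC lay in the peaks at his-59 and his-60, his-61 and his-62, and his-37, and in the stretch between his-67 and his-68. The his-63 and his-64 sequence had a peak without it, and the his-6 and his-5 pair had it without a peak. AAGACTCA stood between his-60 and his-59 and between his-63 and his-64, which had peaks, and between his-2 and his-1 and between his-38 and his-40, which had none.

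E2F core sequences were about as frequent before histone genes as before other genes. They occurred within 300 bp before the start of 8 of 72 histone genes (11.1%), against 9.46% of other genes, and in 2 of the 21 distinct pair sequences. At the peaks, 1 of 6 histone gene peaks had a core within 100 bp of the summit, against 29.7% of all optimal peaks and 31.6% of optimal peaks at promoters. With 6 peaks, a lower share cannot be told from a like one. Their median signal, 61.6, was also below the 78.4 of all optimal peaks. TTCCCGC stood between his-47 and his-48, his-58 and his-57, and his-66 and his-65, H2A and H2B pairs with no unique 36-base word and no region between their starts. TTCGAA or TTTGAA are short forms of the element through which DREAM complexes bind cell cycle genes in mammals. One or the other lay in 22.2% of the stretches before histone genes, against 70.8% before other genes. They lay in 3 of the 21 distinct pair sequences. The stretches before histone genes are not independent, and in close pairs they run into the partner gene. At the summits, 1 of 6 histone gene peaks had either word (TTTGAA, between his-67 and his-68), against 58.7% of all optimal peaks. That share rests on 6 peaks, and the difference was not tested. A match is only a match of letters.

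Genes whose products bind histone messages, carry histones or stand in for them were set beside the his genes as lists, and no test of the difference was made. Of the 14 genes for histone messenger RNA binding and histone chaperones, 12 had a promoter peak (85.7%), against 10.9% of all genes. Within 200 bp of a start, only those at cdl-1, asfl-1, chaf-2, rba-1 and hmg-3 remained. The genes were listed with earlier results of these data known. The 12 peaks had a median signal of 225, and each of the 14 genes had at least 82.8% unique words. The strongest was at nasp-2, which encodes a relative of the histone chaperone NASP, with a signal of 1967 (rank 5), 984 in replicate 1 and 987 in replicate 2. The gene lin-53, which encodes a histone-binding protein of chromatin assembly and DREAM complexes, had 894, and unc-85, which encodes the H3 and H4 chaperone ASF1, had 862. The gene cdl-1, whose product binds the stem-loop at the end of replication-dependent histone messages, had 134, with 69.3 in replicate 1 and 71.0 in replicate 2. These 4 genes had replicate values close to each other, and each of their peaks held an E2F core within 100 bp of the summit.

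The other peaks of this list were at nasp-1 (365), hmg-3 (350), hmg-4 (280), chaf-2 (170), asfl-1 (79.7), spt-16 (60.1), hira-1 (52.0) and rba-1 (48.8). The summits counted for hmg-4 and asfl-1 lay nearer to the start of another gene. The genes hmg-3, hmg-4 and spt-16 encode subunits of FACT, which moves histones during transcription and replication, and chaf-2 a subunit of chromatin assembly factor 1. The peak at hira-1, which encodes a chaperone for H3.3, rested mostly on 1 replicate, with 48.1 in replicate 1 and 4.53 in replicate 2. The genes chaf-1 and xnp-1 had no promoter peak, and chaf-1 had a joint-list region with 34.7. An E2F core lay within 100 bp of the summit at 10 of the 12 peaks.

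Of the 8 linker histone genes hil-1 to hil-8, 1 had a promoter peak (12.5%), near the 10.9% of all genes. That was hil-4, with a signal of 397 (rank 203), 168 in replicate 1 and 224 in replicate 2, 62 bp upstream of the start. A joint-list region alone stood at hil-5, with a signal of 25, as at the linker histone gene his-24, with 10.8. Among histone variants under other names, htz-1, which encodes H2A.Z, had 415, with 214 in replicate 1 and 193 in replicate 2. The gene cpar-1, a relative of the centromeric H3 gene hcp-3, had 154, with 83.7 in replicate 1 and 68.6 in replicate 2, while hcp-3 itself had a joint-list region of 17.4 only. The peaks at hil-4, htz-1 and cpar-1 were all above the strongest his gene peak, 144. The summit counted for htz-1 lay 304 bp upstream of its start and nearer to the start of another gene, and that for cpar-1 lay 258 bp upstream. Of 11 replication-phase genes, also listed with earlier results known, 10 had a promoter peak (90.9%), against 10.9% of all genes. The median was 403 and the range 61.2 to 1470. The peaks were at mcm-2 to mcm-7 of the replicative helicase, the sliding clamp gene pcn-1 (1040), and the licensing genes cdt-1 (61.2) and cdc-6 (101). Summits at mcm-2, mcm-5, pcn-1 and cdc-6 lay beyond 200 bp, and those at mcm-3 and cdc-6 nearer another gene's start. The ribonucleotide reductase gene rnr-1 (484) also had a peak. The other subunit gene, rnr-2, had no promoter peak.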

How the data were processed

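The authors deposited peak lists on builds ce10 and ce11; the ce11 lists were used. They comprise a list of 30000 regions per replicate, a joint list of both replicates, and the part of it that passed the irreproducible discovery rate (the optimal list), per each sample's deposited text. The sources used here do not give the aligner, the peak caller or the threshold. The signal is the authors' deposited value, used only to rank and describe regions within a list. The deposited −log10 q-value was not used for ranking. The texts deposited with the samples list a track of unique reads, but not whether peaks were called on such reads alone.

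Summits were the region start plus the deposited offset. Start sites came from Ensembl release 115 (29314 sites), histone gene names from RefSeq through WormBase identifiers, since Ensembl gives 22 of the 72 another copy's name. For 64 histone genes the annotation has no 5' untranslated region, so the start site is the coding start (22.4% of other genes). A gene took its strongest summit within 500 bp. A region of a replicate was matched to a peak by overlap, taking the strongest. Genes named are those with an optimal peak, up to 10 others by joint-list signal (7 had a region), those outside clusters and the lowest-numbered gene of each cluster without a peak. Words were counted on both strands of the WBcel235 sequence, mitochondrial DNA included, with Python 3.11.15, numpy 2.4.6, pandas 2.3.3 and scipy 1.17.1. The assignment and word counts were checked on simulated data. Members and gene lists were chosen with earlier results of these data known. Mitochondrial regions of the peak lists were left out. No test was run, since there is 1 group. Alternatives changed the window, the list, the start sites, the cluster distance, the word length and the replicate used.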

Additional observations from a re-analysis of the deposited data

How the results depend on the processing

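The count of histone genes with a promoter peak, 10 in 6 peaks and 5 groups, was 9 with a window of 200 bp (12.5%, against 5.92% of all genes), 10 with the outermost start site (13.9%, against 10.5%) and 10 with 2 times as many joint regions (13.9%, against 16.8%), so its place above or below the share of all genes depends on the setting. With a window of 1000 bp it was 16 genes (22.2%, against 13.8% of all genes) in 14 peaks and 8 groups, and the joint list had a region at 34 genes. Counting a peak only for the closest start, it was 6 genes (8.33%, against 8.75%). The stronger 1401 optimal peaks left 3 genes (4.17%, against 6.49%) in 2 peaks and 2 groups, with a median signal of 144, as a higher threshold must remove weak peaks. The median was 65.2 with the 200-bp window, which drops his-72. Leaving out each replicate in turn gave 9 to 11 genes, 6 to 8 peaks, 5 to 6 groups and 14 to 20 genes in the whole list; the median of 26.8 to 34.2 is on the scale of 1 replicate. Without replicate 2, his-63 and his-64 were lost, and his-74 was gained with either replicate left out. Within 1000 bp, stronger peaks gave his-72 160, his-63 and his-64 57.3, and hira-1 121. No E2F core lay within 50 bp of a histone gene summit (0, against 1 within 100 bp). The median share of unique words was 11.4% with 50-base and 18.8% with 100-base words. Of histone genes with at least 75% unique words, an alternative chosen after seeing the data, 5 had a promoter peak by closest start (23.8%, against 9.13% of other genes), 3 among the stronger peaks (14.3%, against 6.76%), and 9 with either replicate left out (42.9%, against 10.9% without replicate 1 and 11.1% without replicate 2). No paired analysis was possible because there is 1 group and no test.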

Other observations

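Optimal peaks that were not promoter peaks of the gene had their summits within 500 bp of the 3' ends of 6 histone genes, a set of positions found after the maps had been drawn. Such peaks were not counted over other genes, so whether 6 is many or few cannot be told. The optimal peak nearest to the his-55 group was stronger than those at the 6 genes, with a signal of 1225. Its summit lay farther off, 628 bp past the 3' end of his-55. Past the end of his-65 (H2A) by 310 bp, a peak had a signal of 42.7, with 38.8 in replicate 1 and 48.7 in replicate 2, and its nearest start site was that of his-65, 693 bp away. Past the end of his-64 (H4) by 203 bp, a peak had 57.3, with 40.6 in replicate 1 and 17.6 in replicate 2, a stronger value than the 40.8 of the peak between his-63 and his-64. The other 4 lay nearer to the start of another gene. They were at his-69 (101, 114 bp from the start of rcq-5), his-72 (160, 193 bp from Y75B8A.33), his-35 (54.0, 209 bp from mdf-1) and his-74 (62.3, 2 bp from ccch-3). A further optimal peak stood 705 bp upstream of his-42, the H3 gene at the edge of the chromosome II cluster, with 54.2 in the optimal list, 27.6 in replicate 1 and 26.4 in replicate 2.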
